A study of Homo sapiens with 4 samples.

Results

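The subject of this report is the transcription factor network built around MYC and its partner MAX. It is read through windows of its genes listed as peaks in RNA recovered with YTHDF1. A listed window is not shown here to be the place where YTHDF1 was bound. YTHDF1 is a cytoplasmic protein that recognises N6-methyladenosine (m6A) in RNA. The network was taken as 10 genes by symbol: MYC, MYCL, MAX, MNT, MGA, MLX, MLXIP, MXD1, MXD4 and MXI1. Of these, 8 had at least 1 window in the deposited table of RIP-seq peaks, with 36 of its 26819 distinct windows, and MNT and MXD1 were not listed. RIP-seq is RNA immunoprecipitation followed by sequencing, in which RNA recovered with a protein is compared with the RNA of the whole lysate.

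All 4 libraries came from SNU638, an established human gastric cancer cell line, in which YTHDF1 was overexpressed. Cells of both groups were kept without serum for 24 h and then exposed to IFN-γ at 10 ng/ml for 24 h. One group, IP-YTHDF1, held 2 immunoprecipitated libraries, and the other, Input, held 2 libraries of lysate RNA, each labelled as biological replicates. Per the methods, the overexpressed protein carried a FLAG tag and was precipitated through it. A group without IFN-γ, without overexpression or with control IgG was not analysed here, so no value below is a response to IFN-γ or to the level of YTHDF1. For each 50 bp window the table has a signal value with a p-value and its adjusted form, the q-value, and nothing for a single library, so no spread between replicates could be given, the depth is unknown here and no test between groups was run. The signal value is a score of unstated scale, and all comparisons of it are orders within this table. A window needs both expression and recovery to be listed, and in bulk libraries fewer cells with a transcript and less of it per cell cannot be told apart. Among marker genes, 5 of 8 epithelial ones had a window (KRT18, KRT19, GRHL2, EPCAM and KRT8) and 0 of 6 of leukocytes, stroma and endothelium did, against 31.8% of all RefSeq protein-coding genes. Counts this small do not settle the cell type.

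MYC is a basic helix-loop-helix leucine zipper (bHLHZip) protein that binds DNA only as a dimer with MAX and promotes growth, ribosome production and metabolism. MAX also dimerises with the MXD proteins, with MXI1, with MNT and with MGA, and these dimers occupy the same DNA sites and recruit repressors. A parallel branch is formed by MLX, which pairs with MLXIP (also called MondoA), a sensor of glucose-derived metabolites, and can also pair with MNT and some MXD proteins. MYC mRNA is short-lived, and its level in the cell depends strongly on how fast it decays and how well it is translated, which is why readers of m6A on this and related transcripts are of interest.

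The genome sequence under a listed window was available for 2 of the 36 network windows, in full for 1 of MAX and in part for 1 of MXD4. These reach into the RefSeq start-site entries (250 bases before to 50 bases after a start site, GRCh38.p14) of their own gene. They are shown because the other 34 windows had no known sequence. Each is the listed window nearest to the 5′ end of its gene. The letters searched for were those of the DRACH motif, the sequence context of m6A: A, G or T, then A or G, then AC, then A, C or T, on the strand of the gene. The 50 bases of the MAX window held it 1 time, as GGACT, and the 30 bases that end this window are given with the motif in capitals. The 23 known bases of the MXD4 window did not hold it.
MAX, minus strand, chr14:65102425-65102454: gagtgagtgtgtgtgtgggggGGACTcggc
MXD4, minus strand, chr4:2262060-2262082: gtgcggcggccgggcgcgcgggg
Over all genes, 155 of 392 listed windows that lay wholly inside a start-site entry of their gene held the motif (39.5%). So did 49.6% of the first 50 transcribed bases of all 35116 entries, but the 392 windows could lie anywhere in an entry. The shares are thus of unlike stretches. The match in MAX is therefore a description of this window, and whether the adenosine is methylated was not measured.

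MYC (ENSG00000136997, plus strand of chromosome 8, RefSeq interval 127735434 to 127742951, GRCh38) had 4 listed windows, and none of them touched another. The first from the 5′ end lay at 127736085 to 127736134, 651 bp from the start of the interval, with a signal value of 1.65 (q = 2.14e-05). After a gap of 50 bp, the second lay at 127736185 to 127736234, with a signal value of 1.38 (q = 2.95e-05). These 2 had the lowest q-values of the gene, and their signal values were both under the median of 1.84 for all listed windows. The third window, at 127738185 to 127738234, was separated by 1950 bp and had the highest signal value of the gene, 2.09 (q = 0.000751). The fourth, at 127738935 to 127738984, had a signal value of 0.88 (q = 0.007535). This last value was low for the table as a whole, since 99.1% of all listed windows were higher. The 4 windows spanned 2900 bp and ended 3967 bp before the 3′ end of the interval, so the 3′ part of MYC had no listed window.

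**Figure D1:**
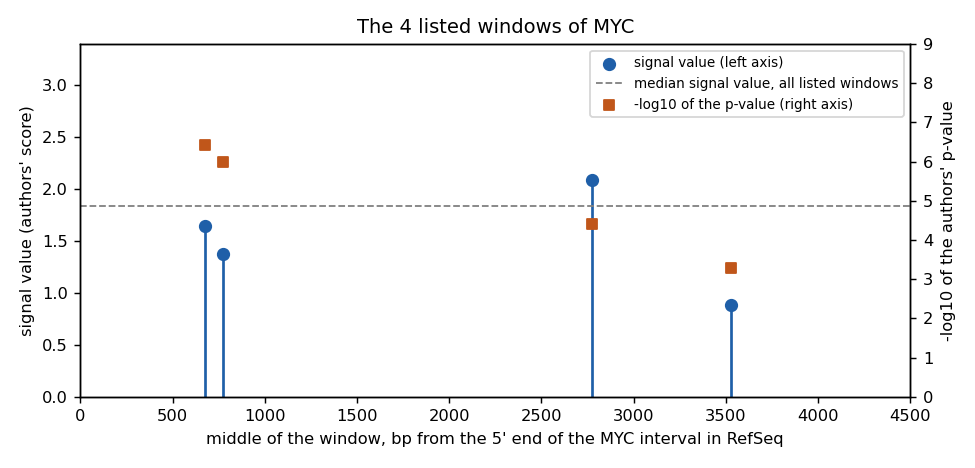
Signal value (circles, left axis) and -log10 of the deposited p-value (squares, right axis) of the 4 listed MYC windows against the distance of their middle from the 5′ end of the RefSeq interval; the dashed line is the median signal value of all listed windows, 1.84. The 2 windows nearest the 5′ end have the smallest p-values, and the third has the largest signal value, 2.09.

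The order by signal value and the order by p-value thus differed in MYC. The third window led by signal value and came after the first and second by p-value (3.95e-05), while the first window led by p-value (3.75e-07). The table does not say how the signal value and the p-value were computed. Over listed protein-coding genes with 2 or more windows and 1 strongest window, the strongest also had the lowest p-value in 77.9% of 4311 genes. Among the network genes with unequal signal values it did so in 3 of 7, which were MGA, MLX and MLXIP. The genes on both sides were not matched by number of listed windows, and the share at equal numbers was not computed.

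The strongest MYC window exceeded 68.4% of all listed windows. Set against the strongest window of each listed protein-coding gene, it exceeded 38.1% of genes, and against the 568 protein-coding genes that also had 4 listed windows it exceeded 31.2%. These 568 genes had a median strongest signal value of 2.31, and in 139 of them (24.5%) all 4 windows lay apart from one another, as in MYC. With the q-value limit set to 0.001, 3 of the 4 MYC windows were left, the fourth being lost, and the strongest then exceeded 36.9% of the windows left. Of the 4, 1 was at or above the median signal value of the table, and it exceeded 37.9% of the windows at or above that median. Under a Bonferroni limit over all 310017 windows recovered for listed genes, 0 MYC windows were left. MAX, MGA and MLXIP, 3 of the 10 members, kept a window under that limit, against 12.5% of RefSeq protein-coding genes.

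The number of windows tested in a gene was recovered from the quotient of its q-values and p-values, because q-values in this table behave as adjusted within each gene. For MYC this gave 57 windows, fewer than the 151 that would tile its interval, and the rule by which windows were tested is not stated. The 4 listed windows were 7.02% of those tested (95% Wilson interval 2.76% to 16.7%, counting error only, neighbouring windows not being independent). In all listed protein-coding genes 8.60% of the windows tested were listed, and 7.71% in those with fewer than 9 listed windows. Both shares lie inside that interval.

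MYCL, the L-MYC paralogue (ENSG00000116990, minus strand of chromosome 1, interval 39895428 to 39901917), had 3 single windows. The one nearest the 5′ end, at 39901477 to 39901526, had the highest signal value, 2.17, and the highest q-value, 0.02542. The next, at 39901027 to 39901076, had a signal value of 1.99 (q = 0.004519). The one nearest the 3′ end, at 39897677 to 39897726, had a signal value of 1.68 (q = 0.001249), so in MYCL the 2 orders ran opposite to each other throughout. None of the 3 passed a q-value of 0.001. The window nearest the 3′ end also lies in the RefSeq interval of the antisense gene MYCL-AS1. The libraries were strand-specific per the labels, but whether strand was used in counting is not stated, and the part of MYCL-AS1 in this value was not tested.

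MAX, the obligate partner of MYC (ENSG00000125952, minus strand of chromosome 14, interval 65006101 to 65102695), had 4 windows in 3 places. The window at 65102425 to 65102474, 221 bp from the 5′ end and shown above with its GGACT, had a signal value of 1.92 and the lowest q-value of the gene, 4.49e-08. The strongest, at 65093725 to 65093774, had a signal value of 2.46 (q = 1.33e-07). A touching pair at 65061775 to 65061874 had signal values of 1.95 and 1.82, with q-values of 0.001543 and 0.01361.
Both windows with q-values under 0.001 were thus on the 5′ side of the gene. The strongest window lies inside the interval of the antisense lncRNA gene MAX-AS1, and the touching pair lies inside that of FNTB and of the read-through gene CHURC1-FNTB. FNTB was listed on the plus strand, with a window of signal value 1.58 at 65061496 to 65061545, 229 bp from the MAX pair. Reads of an opposite-strand gene in the MAX values were not tested for, and of the 4 windows only the one near the 5′ end lay in no other RefSeq gene.

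MLX (ENSG00000108788, plus strand of chromosome 17, interval 42567100 to 42573203) and MLXIP (ENSG00000175727, plus strand of chromosome 12, interval 122078756 to 122147344) form the glucose-responsive branch, and their windows were arranged differently. In MLX, a touching pair at 42570019 to 42570118 had signal values of 1.90 and 1.58 and q-values of 2.56e-05 and 0.000563. A single MLX window at 42568869 to 42568918 had a signal value of 1.66 (q = 0.04018). All 3 MLX values were close to or under the table median of 1.84.
In MLXIP all 4 windows lay within 250 bp of each other, the first of them 151 bp from the 5′ end of a gene of 68589 bp. Of these, 3 touched, from 122078907 to 122079056, with signal values of 2.24, 3.34 and 2.85 in order from the 5′ side. Their q-values in the same order were 5.93e-05, a value listed as 0, and 4.78e-12. The fourth, at 122079107 to 122079156, had a signal value of 1.72 (q = 0.02705). The middle window, at 3.34, was the highest of the whole network and exceeded 98.7% of all listed windows. MLXIP was also the highest by gene, above 96.7% of listed protein-coding genes and above 95.6% of the 568 with 4 windows. Since 94 windows were tested in MLXIP, its listed share was 4.26% (interval 1.67% to 10.4%), the lowest of the 8 genes.

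MGA (ENSG00000174197, plus strand of chromosome 15, interval 41621224 to 41769940) is a large MAX partner that also carries a T-box domain and belongs to a Polycomb repressor complex. It had 9 listed windows, the most that any gene in the table has and a number reached by 897 genes. One stood alone at 41660925 to 41660974, with a signal value of 1.80 (q = 0.00936), and it lay 178 bp after an annotated RefSeq start site inside the gene. The other 8 touched and formed 1 stretch of 400 bp, 41668875 to 41669274, the longest of the network. Along this stretch the signal values were 2.66, 1.61, 3.03, 2.13, 2.48, 1.86, 1.52 and 1.82. The values therefore rose and fell from window to window, and the highest, 3.03 with a q-value of 2.33e-11, exceeded 97.0% of all listed windows. By its strongest listed window MGA was above 92.2% of listed protein-coding genes and above 83.0% of the 854 protein-coding genes with 9 listed windows. A stronger window may be missing from the list of MGA, described next, and from those of other genes with 9.
The list of MGA appeared incomplete. With q-values adjusted gene by gene, each pair of q-value and p-value gives the place of a window in the order of p-values, and the 9 listed windows held places up to 17 of 161 windows tested. At least 8 windows with smaller p-values than the last listed one are thus not in the table. Listed windows are numbered from the 5′ side in MGA, and the last ended 100666 bp before the 3′ end of the interval, so the table does not show whether the rest of MGA holds windows. In MYC, MYCL, MAX, MLX, MXD4 and MXI1 no place was skipped up to the last listed window. In MLXIP none was skipped either, with the window of p-value 0 taken as the first.

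MXD4 (ENSG00000123933, minus strand of chromosome 4, interval 2247432 to 2262109), a repressor of MYC-dependent transcription that is typical of resting and differentiating cells, had 7 windows in 4 places. Of these, 3 touched at 2261933 to 2262082, from 27 bp after the 5′ end of the gene onward. Their signal values, from the 5′ side, were 2.11, 2.15 and 2.23, and their q-values 0.000402, 3.68e-05 and 0.000511. A single window at 2255233 to 2255282 had a signal value of 1.81 (q = 0.0258). A touching pair at 2251133 to 2251232 had signal values of 1.5 and 1.47, with q-values of 0.000371 and 0.01379 in order of position. The last, at 2249733 to 2249782, had 1.33 and a q-value of 0.0258. The 3 windows at the 5′ end were all above the table median, and the other 4 were all below it. The strongest MXD4 window was above 49.9% of listed protein-coding genes, and above 28.5% of the 260 that also had 7 listed windows.

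MXI1 (ENSG00000119950, plus strand of chromosome 10, interval 110207605 to 110287365), the other MXD-type repressor with a window among the 10 genes, had a touching pair at 110228206 to 110228305. Both windows had the same signal value, 1.83, the same p-value, 0.002997, and the same q-value, 0.01648. Equal signal and p-values in adjacent windows of a gene were found in 152 of 8377 such pairs (1.81%). In MXI1, 11 windows were tested, the fewest of the 8 genes, so its listed share of 18.2% has a wide interval, 5.14% to 47.7%. Neither window passed a q-value of 0.001.

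**Figure D2:**
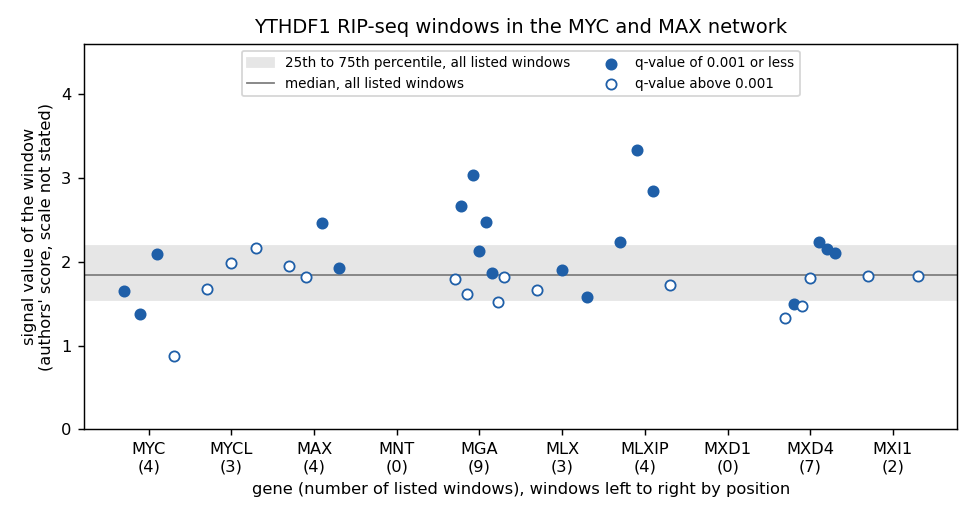
Signal value of each listed window, 1 point a window, for the 10 network genes with the number of listed windows in brackets; filled points have a q-value of 0.001 or less, and the grey line and band are the median and the 25th to 75th percentile of all listed windows (1.84, 1.54 to 2.19). Windows of MLXIP and MGA reach 3.34 and 3.03, MYC has the lowest point at 0.88, and MNT and MXD1 have none.

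Ranked by strongest window, the order was MLXIP (3.34), MGA (3.03), MAX (2.46), MXD4 (2.23), MYCL (2.17), MYC (2.09), MLX (1.90) and MXI1 (1.83). No neighbours in this order can be said to differ, since the table has no replicate values. The median of these 8 strongest values was 2.20, against 2.23 over all 6679 listed protein-coding genes. Over the 36 windows the median signal value was 1.85, against 1.83 for all windows in protein-coding genes, and 18 of the 36 were at or above the median of the table. As a group, the network was thus placed at the middle of the table by signal value, with MLXIP and MGA near its top.

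**Figure D3:**
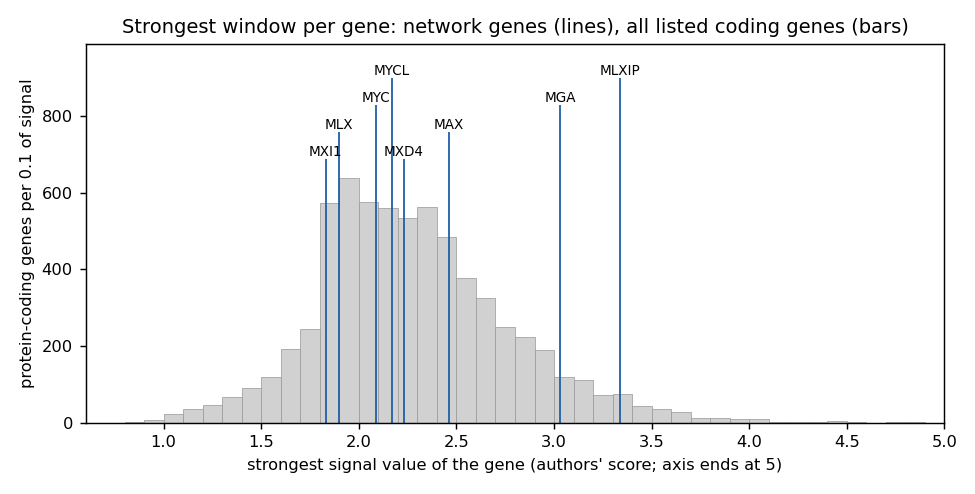
Number of listed protein-coding genes by strongest signal value, in steps of 0.1 (grey bars, axis ending at 5), with the strongest value of each of the 8 listed network genes as a labelled line. MYC at 2.09 lies left of the median of 2.23, and MGA (3.03) and MLXIP (3.34) lie in the upper tail.

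By gene, 8 of 10 network members (80%) had a listed window, against 31.8% of 20056 RefSeq protein-coding genes. This background also holds genes that SNU638 cells may not express. The 10 members were chosen with earlier results of these data known. Of MYCN, MXD3 and MLXIPL, network genes outside the 10, 1 of 3 had a listed window. With the q-value limit at 0.001, 6 of 10 had one (60%), against 21.2% of the background, with MYCL and MXI1 lost. Counted by windows tested, 36 of 542 in the 8 genes were listed (6.64%), against 8.60% in all listed protein-coding genes. Lists of 9 windows were often incomplete, with a place skipped in 527 of 854 protein-coding genes with 9 listed windows and in 1 of 5799 with fewer. With genes of 9 listed windows left out on both sides, which among the members removes MGA, the shares were 7.09% and 7.71%. The listed network genes had a median of 61 windows tested, against 35 in listed protein-coding genes, and 4 windows listed against 3. The number of windows tested rises with the number listed over all genes, and its part in the share of genes with a window was not tested. MLXIP, MAX, MYCL and MGA had more windows tested than 75% of protein-coding genes with the same number listed.

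**Figure D4:**
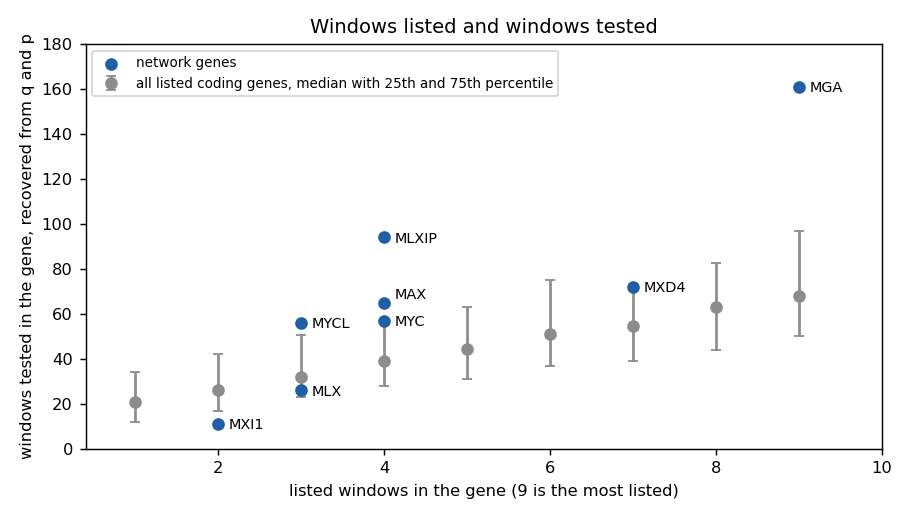
Windows tested per gene, recovered from q-values and p-values, against windows listed; grey points and bars are the median and the 25th to 75th percentile over all listed protein-coding genes, and labelled points are the network genes. MGA (161 tested), MLXIP (94), MAX (65) and MYCL (56) lie above the bars for their number of listed windows, and MXI1 (11) lies below.

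Position along the gene was compared through the distance to the 5′ end of the RefSeq interval, since exon and UTR annotation was not used here. A window within 500 bp of that end was present in 4 of the 8 listed genes, MYCL, MAX, MLXIP and MXD4, which is 50% against 43.1% of 6119 listed protein-coding genes. Among windows, 9 of 36 (25%) were that near, against 24.0% of 22550 in protein-coding genes. Both shares were near the background. Both sides include genes with 9 listed windows, whose lists were often incomplete, and shares without these genes were not computed. The 9 windows near the 5′ end had a median signal value of 2.17 and the other 27 a median of 1.82, a difference that also ran through the table as a whole, with 1.99 and 1.78. MYC entered at 1000 bp, where 5 of 8 network genes and 49.1% of protein-coding genes had a window. Counted from the nearest annotated start site, MGA joined in place of MYC, with 5 of 8 against 50.7%.

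**Figure D5:**
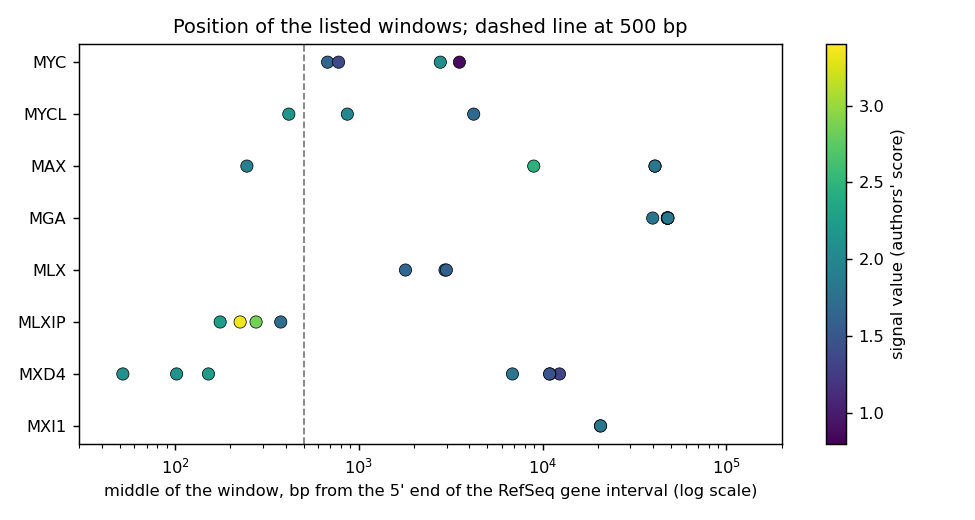
Distance of the middle of each listed window from the 5′ end of the RefSeq gene interval (log scale), coloured by signal value, for the 8 listed network genes; the dashed line marks 500 bp. All 4 MLXIP windows and 3 of the 7 MXD4 windows lie left of the line, and those of MYC, MLX, MGA and MXI1 lie right of it.

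Of the 36 windows, 22 (61.1%) touched another listed window of the same gene, against 50.8% of windows in protein-coding genes. MGA alone gave 8 of these, and MYC and MYCL gave none. Joining touching windows left 21 regions.

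The other genes of the network, its cofactors and its targets were taken from lists and are given as counts beside the background of 31.8%. Of 3 further network members, MYCN, MXD3 and MLXIPL, the repressor MXD3 was listed, with 3 windows and a strongest signal value of 1.71. Among cofactors and regulators of MYC, 13 of 18 had a window (72.2%), with a median strongest value of 2.38. The first 4 of them were FBXW7 (3.0), the ubiquitin ligase subunit that marks MYC protein for degradation, RUVBL1 (2.99), an ATPase of chromatin complexes, EP400 (2.98), a chromatin remodeller, and MYCBP2 (2.91), a large ubiquitin ligase. Among corepressors and chromatin partners of the MXD, MNT and MGA proteins, 6 of 14 had a window (42.9%), with a median of 2.13. L3MBTL2 (2.78) and PCGF6 (2.30), both partners of MGA in its Polycomb complex, came first, followed by the corepressors NCOR1 (2.16) and SIN3B (2.10). Of the genes named here, FBXW7, EP400, NCOR1 and SIN3B each had 9 listed windows. Stronger windows may be missing from such lists, so these orders and medians hold for listed windows only.

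Among genes activated by MYC, 7 of 12 had a window (58.3%), with a median of 2.31. These were led by the cyclin gene CCND2 (2.60), the nucleolar protein gene NPM1 (2.45), ODC1 (2.36), which starts polyamine synthesis, and CAD (2.31), which starts pyrimidine synthesis. TXNIP and ARRDC4, the best known targets of MLX with MLXIP, were both not listed (0 of 2). Of 9 other bHLHZip genes outside the network, 4 had a window (44.4%): TFAP4 (2.47), SREBF2 (2.21), SREBF1 (1.68) and USF1 (1.38), with a median of 1.95. None of these differences between lists was tested.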

How the data were processed

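The 4 libraries of SNU638 cells, 2 IP-YTHDF1 and 2 Input, were grouped by their titles. Per the labels, a strand-specific kit with removal of ribosomal RNA was used, and the submitters' processing notes name STAR 2.7.3a and GRCh38; the peak caller is not given in the sources used here. The authors deposited 1 table of annotated 50 bp windows. Its signal value is used as a score given by the authors, the p-value and q-value are likewise the authors' deposited values, and the rank the authors gave each window is not reported. The number of columns of values per library was 0, so the planned tests between groups were not run.

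The table had 26820 rows, 1 a repeat. Starts, counted from 0, were moved to count from 1. Of 23172 windows with a unique protein-coding RefSeq symbol, 97.3% lay in that gene's interval (GRCh38.p14), including all 36 network windows. Of 6674 protein-coding symbols, 6370 matched RefSeq. Windows tested per gene were taken as the largest product of q-value and place over p-value (p above 1e-14), a step tested on simulated data. The simulated q-values were adjusted within each gene and no simulated list was shortened. The simulation therefore could not show how the deposited q-values were adjusted, or how the step does on incomplete lists. The number of windows tested is a lower bound where windows with smaller p-values are not listed, and 47 genes gave no number. Shares of windows tested carry Wilson 95% intervals where given for a single gene.

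The genes, the lists beside them (named in order of strongest signal value, at most 4 a list) and the measures were chosen with earlier results of these data known. Tables were handled in pandas 2.3.3 with NumPy 2.4.6 under Python 3.11.15, intervals came from SciPy 1.17.1, and figures were drawn in matplotlib 3.10.9.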

Additional observations from a re-analysis of the deposited data

How the results depend on the processing

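No paired analysis was possible because both replicates and both groups are merged into a single value in each window. For the same reason the comparison of IP-YTHDF1 with Input was not run, nor were its alternatives (replicate block, DESeq2, no filter, leaving out a replicate). Shares by transcript region and the share of all network windows with a DRACH motif were not run, since exon annotation and genome sequence were not used here.

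With the q-value limit at 0.001, 19 of the 36 network windows were left, and the strongest MYC window exceeded 36.9% of the windows left, against 68.4% of all. A Bonferroni limit over the 310017 windows recovered for the listed genes left 3 members (MAX, MGA and MLXIP) with 7 windows, against 12.5% of RefSeq protein-coding genes, and 0 windows of MYC. Benjamini-Hochberg adjustment over the same windows left 35 windows and put the strongest MYC window at 64.9%. Windows at or above the median signal value numbered 18 in the network and 1 in MYC, which then exceeded 37.9%. Joining touching windows gave 21 regions and 65.0% for MYC, and leaving out windows that overlapped one listed for a second gene of equal strand, which removed none of the 36, gave 69.4%. In each of these the windows compared with are fewer by construction. Leaving out the 4 MYCL and MAX windows inside the RefSeq interval of another gene left 8 members and 32 windows, an alternative chosen after seeing the data. The other 19 values, among them 1 chosen from the start site, 1 at 1000 bp, 1 at the stricter q-value for windows near the 5′ end (3 members) and 1 without MGA, all 4 chosen after seeing the data, moved by less than 1.5 times or stayed within the counting interval. Without depth per library, the absence of MNT and MXD1 cannot be split into lack of expression and lack of recovery with YTHDF1.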
